A study of Homo sapiens with 9 samples.

Results

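The genes described here are the recombination and mismatch repair genes, together with the break sensing, end joining and excision repair genes that work beside them, measured here in MDA-MB-231. This human breast cancer line lacks the oestrogen and progesterone receptors and HER2 amplification. The list names 51 genes by symbol, and 47 of them had a probe set that the platform annotation gives to that gene alone, among 11963 gene symbols and 22215 probe sets in all. Of several probe sets of a gene, the one with the highest mean over all 9 arrays was taken. BRCA2, FANCA and FANCD2 carried no symbol in the annotation used here, and both probe sets of PMS2 are also assigned to the related gene PMS2CL, so these 4 genes are not analysed here. Of the 47, 28 had 1 probe set and 19 had several.

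The arrays compare cells with either of 2 hairpins against Coco (shco4 and shco2) with cells that carry a control hairpin (scramble), 3 biological replicates each. All 3 lines were made by stable transduction with lentiviral vectors (pLKO for the Coco hairpins) and grown in DMEM with 10% fetal bovine serum. Whether a line is a clone or a pool of transduced cells is not given, nor whether its replicates came from separate cultures, so the p-values measure the spread between these arrays. Coco, the product of DAND5, is a secreted antagonist of BMP, activin and Nodal ligands. No probe set carried the symbol DAND5, and the RNA of Coco itself is not reported. The comparisons ask how the repair genes differ between each Coco hairpin and scramble and between the 2 hairpins. Both hairpins were set against the same 3 scramble arrays, so a difference from scramble shared by the hairpins cannot be told apart from a feature of the scramble line.

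Homologous recombination repairs double-strand breaks and stalled replication forks by copying from the sister chromatid, and it is therefore tied to S and G2 phases of the cell cycle. The Fanconi anaemia proteins unlock DNA crosslinks ahead of the fork, and mismatch repair corrects errors left by the replicative polymerases. Transcription of many genes of these 3 pathways is known to follow the cell cycle, whereas end joining and excision repair act in every phase. In breast tissue, inherited loss of BRCA1, PALB2 or their partners is a known cause of cancer.

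Intensities are linear values as deposited, in arbitrary units, and the authors had scaled every array to the same mean, 500.1 after the lowest and highest 2% of probe sets were left out. Median intensity lay between 122 and 130, and the 3′ to 5′ signal ratio, which grows as RNA degrades, lay between 1.07 and 1.14 for ACTB and between 0.868 and 0.958 for GAPDH. Across probe sets, which are no replicates, Pearson r was 0.986 to 0.992 within a line and 0.960 to 0.980 between lines. Of 9 markers read for the cell line, VIM, CD44, CAV1 and AXL mark it by presence. ESR1, PGR, ERBB2, CDH1 and EPCAM mark it by low or absent signal. CD44 and ESR1 rose and AXL and EPCAM fell with shco4 (a log2 difference of -2.11 for AXL). With shco2, 0 rose and VIM, CD44, CAV1 and CDH1 fell (-1.37 for CDH1). The summed intensity of the 9 was 30957 to 32618 with shco4, 25813 to 27267 with shco2 and 36684 to 38834 with scramble. VIM still lay at 9517 or above and CD44 at 3468 or above on every array, while ESR1 lay at 36.1 to 54.1 with shco4, 26.1 to 38.2 with shco2 and 23.2 to 28.6 with scramble, and PGR was below the floor of 16 on all 9 arrays. Of 8 fibroblast markers 1, LUM, rose with shco4 (128 to 296 with shco4, 3.86 to 13.8 with shco2 and 18.2 to 24.97 with scramble), and 0 fell. The summed intensity of the 8 was 503 to 608 with shco4, 305 to 358 with shco2 and 290.4 to 374 with scramble, and FAP lay below the floor on all 9 arrays. Of 9 luminal breast markers 1 (ESR1) rose with shco4 and 5 (KRT19, KRT8, KRT18, XBP1 and SPDEF) fell with shco2, and FOXA1 lay below the floor throughout. Their summed intensity was 17633 to 19025 with shco4, 11087 to 11521 with shco2 and 20118 to 22669 with scramble. By the test given below, 9.75% of all probe sets fell and 9.05% rose with shco4, and 9.95% fell and 10.7% rose with shco2. Of the cell line markers 22.2% fell and 22.2% rose with shco4, and 44.4% fell and 0% rose with shco2. For the luminal markers these shares were 0% and 11.1% with shco4, and 55.6% and 0% with shco2. For the fibroblast markers they were 0% and 12.5% with shco4, and 0% and 0% with shco2. The part of these markers in the results below was not tested.

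A member was called where limma's adjusted p for the difference in mean log2 intensity was under 0.05, with Benjamini-Hochberg adjustment over all 22215 probe sets. With shco4, 16 of the 47 members fell against scramble, where 9.75% of all probe sets fell, and 4 rose, where 9.05% of all rose. With shco2 the balance was the other way: 10 members rose, where 10.7% of all probe sets rose, and 2 fell, where 9.95% of all fell. Between the hairpins, 28 members were lower with shco4 than with shco2, where 16.1% of all probe sets were lower, and 2 were higher, where 14.9% of all were higher. All 47 probe sets lay above the floor of 16 on every array, but no detection call was used. The lowest value was 54.3 (XRCC3 with shco4), close to the highest ESR1 value given above. BRIP1 and ERCC5 were as low as 66.3 and 67.5, where array medians were 122 to 130, so dim members are less certain. Among the 12955 probe sets with a mean log2 intensity over 6, the share that fell with shco4 was 15.6% and the share that rose was 14%. With shco2, 15.8% of these brighter probe sets fell and 17.2% rose, and with shco4 against shco2, 25.7% were lower and 22.6% higher.

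The 47 members comprised 21 linked to S phase (13 of homologous recombination, 5 Fanconi anaemia genes and 3 of mismatch repair), 8 for break sensing and checkpoint signalling, and 18 of end joining and excision repair. Of the 21 genes linked to S phase, 9 fell and 0 rose with shco4, with a median log2 difference of -0.63, while 0 fell and 6 rose with shco2, with a median of 0.39. With shco4 against shco2, 17 of the 21 were lower and 0 higher, with a median of -1.04. Of the 18 end joining and excision genes, 3 fell and 4 rose with shco4 (median -0.10), 1 fell and 3 rose with shco2 (median 0.21), and 7 were lower and 2 higher with shco4 than with shco2 (median -0.15). The roles within a class differed. With shco4 the median was -0.44 for base excision and single-strand break repair, -0.03 for end joining and -0.11 for nucleotide excision repair. For mismatch repair, among the S-phase-linked roles, it was -0.19. The median over all probe sets was 0 in each comparison. As shares, 42.9% of the S-phase-linked and 16.7% of the end joining and excision genes fell with shco4. Of probe sets with a mean log2 intensity over 6, 15.6% did. With shco2, 28.6% and 16.7% rose, against 17.2% of those probe sets. The difference between the S-phase-linked and the other genes was not itself tested. In bulk RNA, fewer cells in a given phase and less RNA per cell cannot be told apart.

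**Figure D1:**
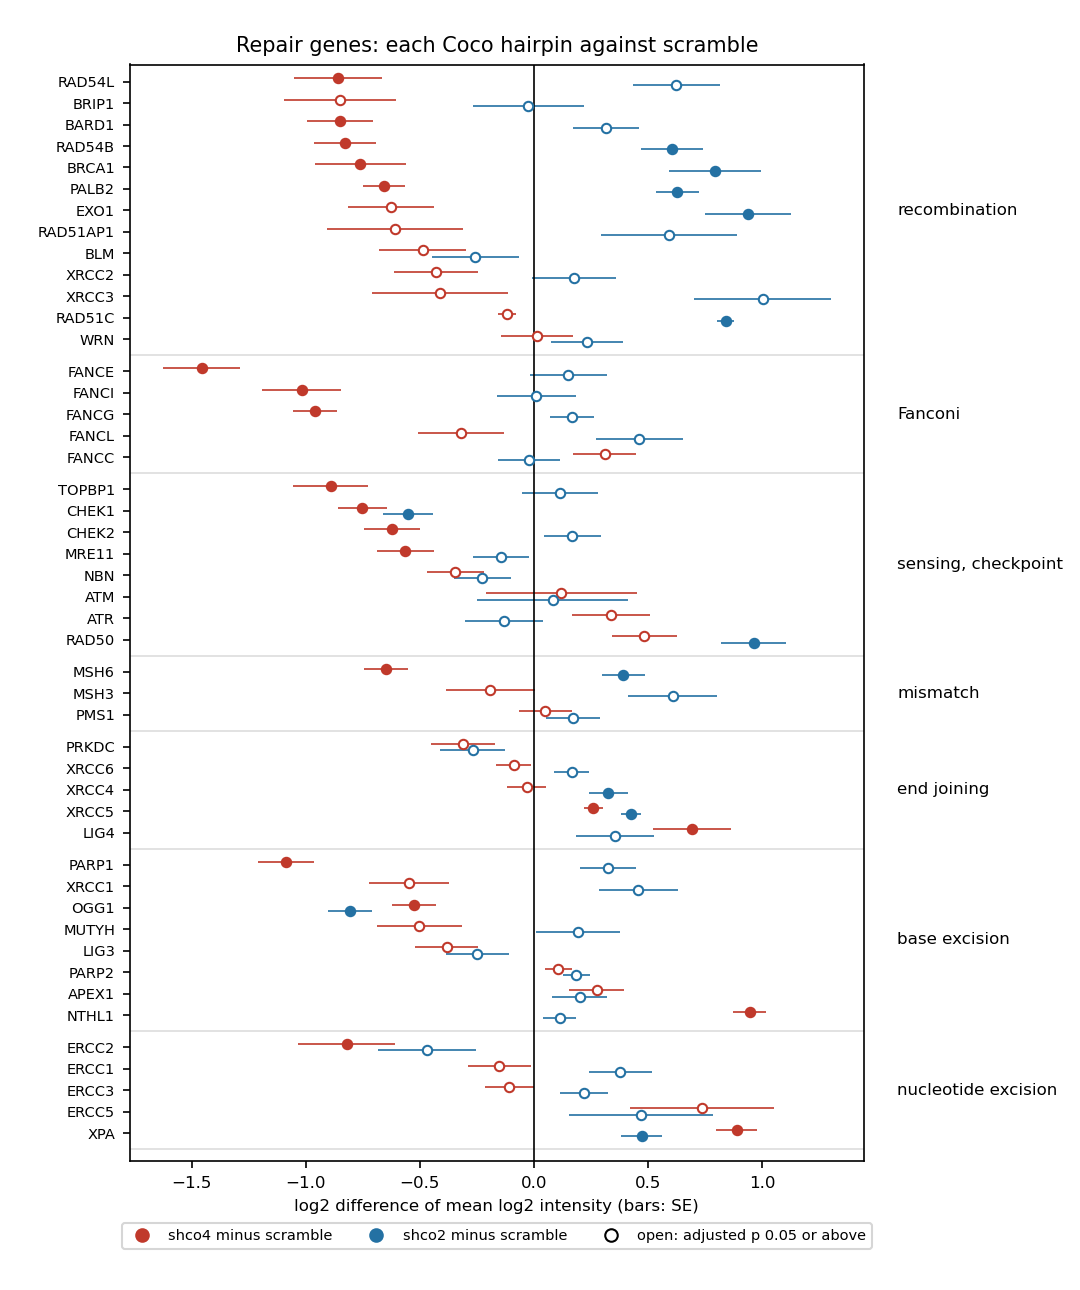
Log2 differences of shco4 minus scramble (red) and shco2 minus scramble (blue) for all 47 members, with bars for the SE (3 arrays a group) and filled points for an adjusted p under 0.05. Of the 13 recombination genes 12 lie left of 0 with shco4 and 11 right of 0 with shco2, and FANCE has the most negative value with shco4 (-1.46).

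Several of these counts changed when any of several arrays was left out, also where a difference itself changed little. RAD54B, for example, differed with shco2 by 0.60 with all arrays (limma, adjusted p = 0.0229). Without shco2 replicate 3 it differed by 0.61 (adjusted p = 0.0667). The 10 members that rose with shco2 became 5 without shco2 replicate 3 and 6 without shco2 replicate 1, scramble replicate 1 or scramble replicate 3. The 28 members lower with shco4 than with shco2 became 18 without shco2 replicate 2 or shco2 replicate 3. Without shco4 replicate 1, the array with the lowest recombination values, 13 members fell with shco4, and the S-phase-linked median was -0.42. Deviations of shco4 and scramble arrays with the same replicate number correlated, and in the fit with a replicate block 19 members fell and 6 rose with shco4.

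A list of 21 genes of proliferating cells was read beside the repair genes. With shco4, 12 of the 21 (57.1%) fell and 0 rose, with a median log2 difference of -0.70. With shco2 0 fell and 1 (CCNE2, 4.76%) rose, with a median of 0.20. Of all probe sets with a mean log2 intensity over 6, 15.6% fell with shco4 and 17.2% rose with shco2. The summed intensity of the 21 was 25529 to 37142 with shco4, 54967 to 58296 with shco2 and 51654 to 54507 with scramble. GINS1, a subunit of the replicative helicase, read 119, 202 and 219.9 with shco4, 1195, 1325 and 1324 with shco2 and 860.2, 938 and 896 with scramble. CDC6, which loads that helicase on origins, read 263, 325 and 338 with shco4, 1162, 1379 and 1284 with shco2 and 1050.3, 1199.6 and 916 with scramble. CCNE2, a cyclin of the passage from G1 into S phase, read 157, 220.2 and 217 with shco4, 1024, 1361 and 1300.3 with shco2 and 496, 695 and 855 with scramble. All 3 fell with shco4, by 2.37 ± 0.22 (SE, adjusted p = 0.00131), 1.77 ± 0.14 (SE, adjusted p = 0.000741) and 1.77 ± 0.24 (SE, adjusted p = 0.00443) on the log2 scale. The median deviation from the scramble mean over the 13 recombination genes was -0.997, -0.37 and -0.49 on shco4 replicates 1, 2 and 3, and over the proliferation genes it was -1.12, -0.54 and -0.48, so replicate 1 was the lowest in both. The part of proliferation in the repair results was not tested.

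**Figure D2:**
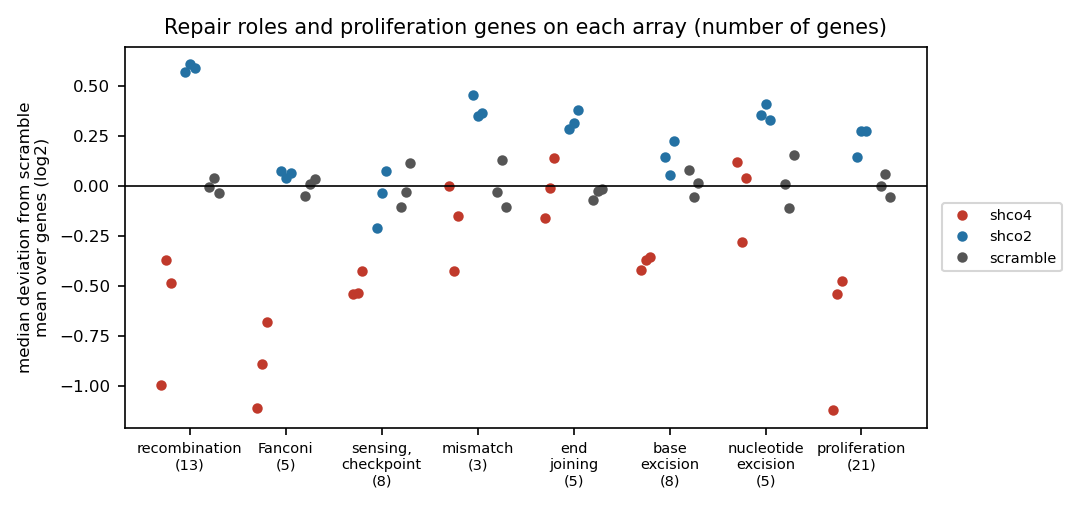
Median deviation (log2) from the mean of the 3 scramble arrays over the genes of each repair role and over 21 proliferation genes, 1 point per array. The 3 shco4 arrays lie lowest for recombination (-0.997 to -0.37), Fanconi anaemia genes and proliferation genes. They also lie lowest for break sensing and checkpoint genes (-0.54 to -0.43) and for base excision genes (-0.42 to -0.35). The 3 shco2 arrays lie between 0.57 and 0.61 for recombination.

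Promoters are shown for the member with the largest called fall with shco4 in each of 4 roles, RAD54L, FANCE, TOPBP1 and PARP1, and for NTHL1 and XPA, the members that rose most with shco4. Each is the 250 bases before the annotated gene start, 5′ to 3′ on the gene's strand, from RefSeq on GRCh38.p14, and capitals mark 7-letter forms of the site of E2F, a factor that turns on S-phase genes. These forms are TTTCCCGC, TTTCGCGC, TTTGCCGC and TTTGGCGC without their first T, on both strands.
RAD54L: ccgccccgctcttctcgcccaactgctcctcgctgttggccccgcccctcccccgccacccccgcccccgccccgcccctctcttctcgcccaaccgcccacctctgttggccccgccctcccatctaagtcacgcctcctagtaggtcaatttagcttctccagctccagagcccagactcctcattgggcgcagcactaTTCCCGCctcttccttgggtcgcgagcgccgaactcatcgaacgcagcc
FANCE: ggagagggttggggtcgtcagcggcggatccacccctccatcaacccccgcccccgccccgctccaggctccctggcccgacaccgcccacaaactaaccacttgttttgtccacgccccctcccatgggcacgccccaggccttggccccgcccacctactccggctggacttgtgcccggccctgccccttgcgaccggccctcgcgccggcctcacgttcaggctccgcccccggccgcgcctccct
TOPBP1: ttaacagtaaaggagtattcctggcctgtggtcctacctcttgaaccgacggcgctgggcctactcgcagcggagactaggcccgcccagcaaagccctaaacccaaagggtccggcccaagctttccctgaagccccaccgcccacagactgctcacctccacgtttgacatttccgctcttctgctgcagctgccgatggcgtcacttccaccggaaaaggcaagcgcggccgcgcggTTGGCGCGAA
PARP1: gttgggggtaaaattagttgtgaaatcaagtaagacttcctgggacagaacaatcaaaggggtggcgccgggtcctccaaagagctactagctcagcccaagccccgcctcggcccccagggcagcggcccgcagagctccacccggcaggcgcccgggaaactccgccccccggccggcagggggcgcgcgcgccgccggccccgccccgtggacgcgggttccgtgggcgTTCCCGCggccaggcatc
NTHL1: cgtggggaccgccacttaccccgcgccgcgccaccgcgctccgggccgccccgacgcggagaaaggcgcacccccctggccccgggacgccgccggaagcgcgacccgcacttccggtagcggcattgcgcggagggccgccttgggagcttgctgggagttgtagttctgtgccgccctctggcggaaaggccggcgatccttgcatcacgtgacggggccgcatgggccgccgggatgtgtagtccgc
XPA: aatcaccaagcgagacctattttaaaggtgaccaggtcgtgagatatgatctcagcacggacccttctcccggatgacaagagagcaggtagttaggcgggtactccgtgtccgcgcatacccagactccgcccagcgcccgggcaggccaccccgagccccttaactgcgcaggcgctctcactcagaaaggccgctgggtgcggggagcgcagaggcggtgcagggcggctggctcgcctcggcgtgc
The windows are chr1:46247438-46247687 (plus strand) for RAD54L, chr6:35452088-35452337 (plus) for FANCE, chr3:133661942-133662191 (minus) for TOPBP1, chr1:226408094-226408343 (minus) for PARP1, chr16:2047835-2048084 (minus) for NTHL1 and chr9:97697341-97697590 (minus) for XPA. RAD54L held 1 match, 42 bases from the start, and PARP1 held 1, 11 bases from it. TOPBP1 held 2 that overlap, with 0 bases between the nearer one and the start, and FANCE, NTHL1 and XPA held none in these windows.

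A promoter window was matched for 41 of the 47 members. The full 8-letter E2F forms, on both strands, were found in 2 of the 41 (4.88%, FANCC and MSH3), against 2.79% of all 27305 windows and 4.09% of the 9563 windows of genes with a probe set. The 7-letter forms, which drop the first T, contain every 8-letter match and were searched after that result had been seen. They lay in 14 of the 41 (34.1%), against 11.0% of all windows and 15.9% of those of genes with a probe set. Among the 18 S-phase-linked members with a window the share was 44.4%, among the 16 end joining and excision members 31.2%, and among the 7 of break sensing and checkpoint signalling 14.3%. Members that fell with shco4 held a 7-letter form in 5 of 14 cases (35.7%), and the other members in 9 of 27 (33.3%). CCAAT boxes (CCAAT, both strands) were in 43.9% of member windows, 33.0% of all windows and 35.6% of those of genes with a probe set. The CHR element (TTTGAA, both strands) was in 9.76%, 13.6% and 9.72% of these. The shares describe letters in these windows and were not tested.

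Of the 13 recombination genes, 5 fell and 0 rose with shco4, 0 fell and 5 rose with shco2, and 11 were lower and 0 higher with shco4 than with shco2, with medians of -0.63, 0.60 and -1.20 on the log2 scale. As shares, 38.5% fell with shco4, 38.5% rose with shco2 and 84.6% were lower with shco4 than with shco2. Of probe sets with a mean log2 intensity over 6, 15.6%, 17.2% and 25.7% did. BRCA1, the ubiquitin ligase and scaffold that starts recombination at a break, had intensities of 121, 186 and 187 with shco4, 444, 439.7 and 547 with shco2 and 281, 237 and 307 with scramble. The shco4 arrays were the lowest, the shco2 arrays the highest, and none of the 3 groups overlapped. BRCA1 fell with shco4 by 0.76 ± 0.20 (SE, adjusted p = 0.0439) on the log2 scale and rose with shco2 by 0.79 ± 0.20 (SE, adjusted p = 0.0355). It was 2.94-fold lower with shco4 than with shco2 (adjusted p = 0.00167). The fall with shco4 ended without any 1 of the 9 arrays (highest adjusted p 0.121). After quantile normalisation neither call was made (adjusted p = 0.0603 with shco4 and 0.052 with shco2). The rise with shco2 ended without shco2 replicate 1, 2 or 3 or scramble replicate 1, 2 or 3 (highest adjusted p 0.107). At its other probe set BRCA1 differed by -0.64 with shco4 (adjusted p = 0.0761) and by 0.33 with shco2 (adjusted p = 0.342).

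BARD1, the partner that stabilises BRCA1, read 166, 208 and 179.9 with shco4, 423, 399 and 413 with shco2 and 288, 411 and 305 with scramble. All 3 shco4 arrays lay under all others, while shco2 and scramble overlapped. BARD1 fell with shco4 by 0.85 ± 0.15 (SE, adjusted p = 0.00985) and differed by 0.32 ± 0.15 (SE, adjusted p = 0.203) with shco2, which passed without scramble replicate 2 (0.47, adjusted p = 0.03). PALB2, which bridges BRCA1 to BRCA2, read 161, 181 and 191 with shco4, 449, 427 and 422 with shco2 and 278, 313 and 252 with scramble. The 3 groups were apart, and PALB2 fell with shco4 by 0.66 ± 0.09 (SE, adjusted p = 0.00503) and rose with shco2 by 0.63 ± 0.09 (SE, adjusted p = 0.00512). No left-out array ended these calls. BRIP1, a helicase that binds BRCA1, read 66.3, 113 and 95.6 with shco4, 176, 149.5 and 152 with shco2 and 142, 213 and 139 with scramble. It was 1.77-fold lower with shco4 than with shco2 (adjusted p = 0.0433). The call for BRIP1 ended without shco4 replicate 1 or 3, shco2 replicate 1, 2 or 3 or scramble replicate 1 or 3 (highest adjusted p 0.124). Its differences from scramble were -0.85 (adjusted p = 0.0571) with shco4 and -0.02 (adjusted p = 1) with shco2.

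RAD54L and RAD54B, translocases that act on DNA during recombination, were lowest with shco4 and highest with shco2. RAD54L read 99.6, 135 and 176 with shco4, 396, 347 and 375 with shco2 and 241, 248 and 235 with scramble, with no overlap between groups. RAD54L fell with shco4 by 0.86 ± 0.19 (SE, adjusted p = 0.0251) and differed with shco2 by 0.62 ± 0.19 (SE, adjusted p = 0.0667). RAD54L was 2.79-fold lower with shco4 than with shco2 (adjusted p = 0.00166). Its fall with shco4 ended without shco4 replicate 2 or scramble replicate 1, 2 or 3 (highest adjusted p 0.0784), and its difference with shco2 passed without shco4 replicate 1 or 3 (adjusted p = 0.0136 and 0.0188). In fits to the compared arrays alone, RAD54L was called with shco2 (adjusted p = 0.00602) and not with shco4 (adjusted p = 0.0813). RAD54B, its paralogue, read 162, 203 and 235 with shco4, 522, 550.1 and 529 with shco2 and 353, 379 and 322 with scramble, again with the groups apart. RAD54B fell with shco4 by 0.83 ± 0.14 (SE, adjusted p = 0.0083) and rose with shco2 by 0.60 ± 0.14 (SE, adjusted p = 0.0229). The rise ended without shco2 replicate 1, 2 or 3 or scramble replicate 1 or 3 (highest adjusted p 0.0747). EXO1, an exonuclease that resects break ends and also serves mismatch repair, read 123, 201 and 191 with shco4, 508, 468 and 515 with shco2 and 265, 236 and 279 with scramble. The shco2 arrays were highest and the shco4 arrays lowest. EXO1 rose with shco2 by 0.94 ± 0.19 (SE, adjusted p = 0.0152) and differed with shco4 by -0.63 ± 0.19 (SE, adjusted p = 0.0644). Its rise ended without shco2 replicate 1 or 3 or scramble replicate 2 (highest adjusted p 0.0538), and its difference with shco4 passed without shco4 replicate 1 (adjusted p = 0.0324).

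**Figure D3:**
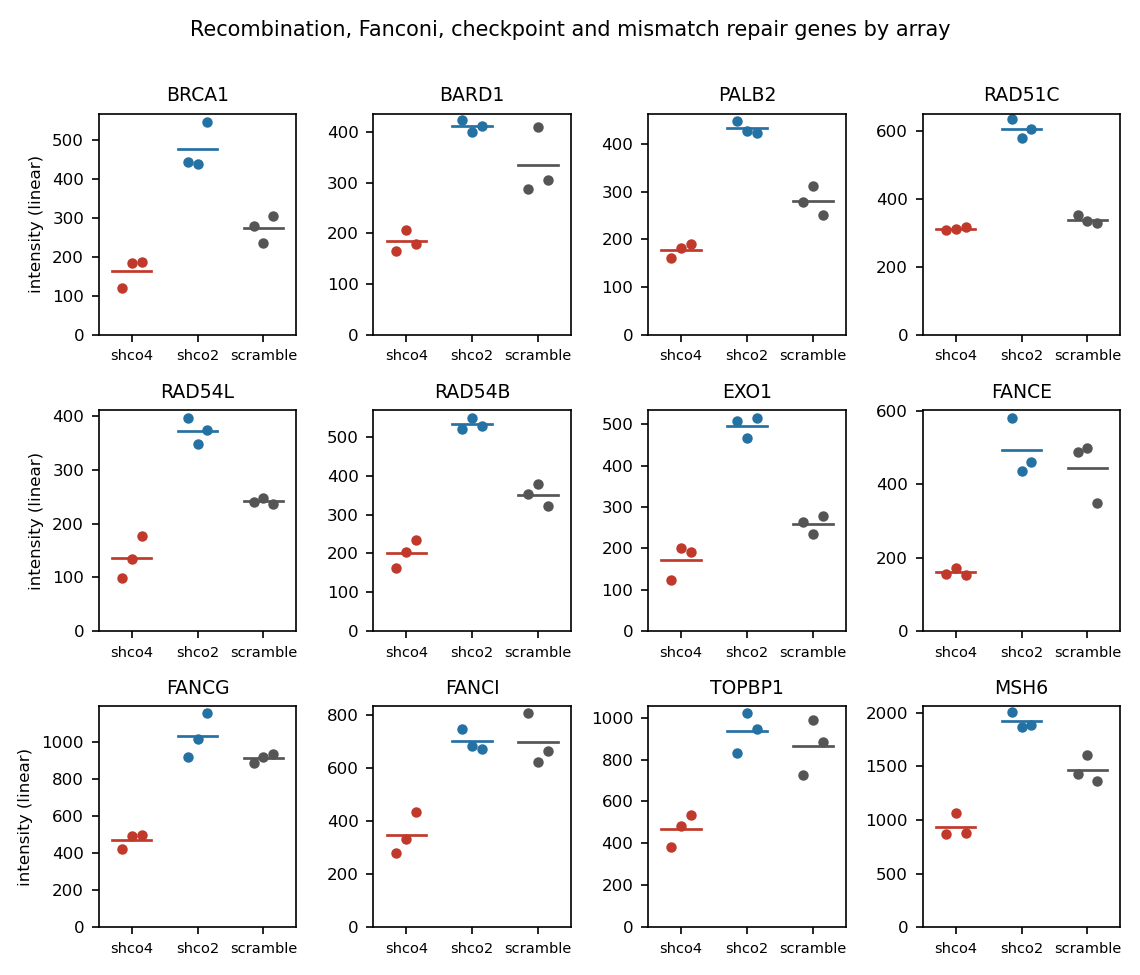
Linear intensity (arbitrary units, axes from 0) of 12 genes of recombination, the Fanconi anaemia pathway, checkpoint signalling and mismatch repair on each array, with the group mean as a bar. In BRCA1, PALB2, RAD54L, RAD54B, EXO1 and MSH6 the shco4, shco2 and scramble arrays do not overlap, with shco4 lowest and shco2 highest. All 12 genes are called members, and the share of all probe sets with groups apart in this way was not computed.

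RAD51C, XRCC2 and XRCC3, subunits of complexes that assist recombination at breaks and forks, were all lower with shco4 than with shco2. RAD51C read 309, 311 and 317 with shco4, 634, 581 and 606 with shco2 and 353, 335 and 328 with scramble, so shco2 stood above both other groups. It rose with shco2 by 0.84 ± 0.04 (SE, adjusted p = 0.000161) and differed with shco4 by -0.12 ± 0.04 (SE, adjusted p = 0.0921). RAD51C was 1.94-fold lower with shco4 than with shco2 (adjusted p = 4.26e-05). At its other probe set RAD51C fell with shco4, by 0.86 (adjusted p = 0.00596), and differed by 0.42 with shco2 (adjusted p = 0.0675). XRCC3 read 54.3, 88.1 and 63.9 with shco4, 236, 146 and 168 with shco2 and 119.5, 90.9 and 66.1 with scramble, and shco4 overlapped scramble. It was 2.66-fold lower with shco4 than with shco2 (adjusted p = 0.0121) and differed by 1.002 ± 0.30 with shco2 (SE, adjusted p = 0.0608). XRCC2 was lower with shco4 than with shco2 by 0.61 ± 0.18 (SE, adjusted p = 0.0469). Without shco4 replicate 1 or 3, shco2 replicate 1, 2 or 3 or scramble replicate 1, 2 or 3 (highest adjusted p 0.135) XRCC2 was not called. Without shco4 replicate 2 it fell with shco4 (-0.61, adjusted p = 0.041). RAD51AP1, a DNA-binding cofactor of recombination, read 440.05, 812 and 719 with shco4, 1097, 1616 and 1771 with shco2 and 774, 1057 and 1114 with scramble, with replicate 1 the lowest in every group. RAD51AP1 was 2.30-fold lower with shco4 than with shco2 (adjusted p = 0.0225). This call ended without shco2 replicate 2 or 3 (highest adjusted p 0.0747). Its difference of -0.61 (adjusted p = 0.231) with shco4 passed with the replicate block (adjusted p = 0.0159).

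BLM and WRN, RecQ helicases that unwind recombination intermediates, were called in none of the 3 comparisons. BLM lay at 112 to 186 with shco4, 158 to 197 with shco2 and 208 to 224 with scramble, and its differences were -0.49 (adjusted p = 0.14) with shco4 and -0.26 (adjusted p = 0.469) with shco2. WRN lay at 108 to 139 with shco4, 123 to 164 with shco2 and 101 to 132 with scramble, and its differences were 0.02 (adjusted p = 1) with shco4 and 0.23 (adjusted p = 0.411) with shco2.

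Of the 5 Fanconi anaemia genes, 3 fell and 0 rose with shco4, 0 fell and 0 rose with shco2, and 4 were lower and 0 higher with shco4 than with shco2. As shares, 60% fell with shco4 and 80% were lower with shco4 than with shco2, against 15.6% and 25.7% of probe sets with a mean log2 intensity over 6. FANCE, a core complex subunit that contacts FANCD2, read 157, 172 and 152 with shco4, 580.1, 434 and 461 with shco2 and 488, 497 and 349 with scramble. The shco4 arrays lay far under all others, and shco2 and scramble overlapped. FANCE fell with shco4 by 1.46 ± 0.17 (SE, adjusted p = 0.00262) and differed with shco2 by 0.15 ± 0.17 (SE, adjusted p = 0.663), and its fall, 2.74-fold, was the largest among the 16 members that fell. FANCG, another core subunit, read 424, 494 and 497 with shco4, 922, 1018 and 1157 with shco2 and 886, 921 and 939 with scramble. FANCG fell with shco4 by 0.96 ± 0.10 (SE, adjusted p = 0.00167). FANCI, which forms the clamp with FANCD2, read 279, 335 and 434 with shco4, 747, 685 and 672 with shco2 and 807, 625 and 666 with scramble. FANCI fell with shco4 by 1.02 ± 0.17 (SE, adjusted p = 0.00962). Against shco2, FANCG was lower with shco4 by 1.13 ± 0.10 (SE, adjusted p = 0.000365) and FANCI by 1.03 ± 0.17 (SE, adjusted p = 0.0049). With shco2 the differences of FANCG and FANCI were 0.17 (adjusted p = 0.316) and 0.01 (adjusted p = 1), and both overlapped scramble.

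FANCL, the ubiquitin ligase of the core complex, was lower with shco4 than with shco2 by 0.78 ± 0.19 (SE, adjusted p = 0.0209). That call ended without shco4 replicate 2 or 3 or shco2 replicate 2 or 3 (highest adjusted p 0.0703). Its differences from scramble were -0.32 (adjusted p = 0.332) with shco4 and 0.46 (adjusted p = 0.153) with shco2. Leaving out shco2 replicate 1 brought FANCL past the threshold with shco2 (0.65, adjusted p = 0.0353). FANCC, a core subunit as well, lay at 276 to 386 with shco4, 231 to 264 with shco2 and 239 to 285 with scramble, with differences of 0.31 (adjusted p = 0.188) with shco4 and -0.02 (adjusted p = 1) with shco2.

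Among the 8 genes that sense breaks and signal to the cell cycle, 4 fell and 0 rose with shco4, 1 fell and 1 rose with shco2, and 4 were lower and 0 higher with shco4 than with shco2. As shares, 50% fell with shco4 and 50% were lower than with shco2, against 15.6% and 25.7% of probe sets with a mean log2 intensity over 6. With shco2 12.5% fell and 12.5% rose, against 15.8% and 17.2%. TOPBP1, which activates ATR at stalled forks, read 385, 484 and 535 with shco4, 832, 1022 and 947 with shco2 and 727, 990.4 and 881 with scramble. Its shco4 arrays lay under all others. TOPBP1 fell with shco4 by 0.89 ± 0.16 (SE, adjusted p = 0.013) and differed by 0.11 (adjusted p = 0.774) with shco2. CHEK1, the kinase downstream of ATR, read 359, 429.7 and 391 with shco4, 425, 443 and 484 with shco2 and 635, 598 and 756 with scramble, so both hairpins lay under scramble. It fell with shco4 by 0.75 ± 0.11 (SE, adjusted p = 0.00537) and with shco2 by 0.55 ± 0.11 (SE, adjusted p = 0.0143), and the hairpins differed by -0.20 (adjusted p = 0.241). The fall with shco2 ended without shco2 replicate 1 (highest adjusted p 0.0514). At the other probe set of CHEK1 the difference with shco2 was -0.24 (adjusted p = 0.293), and that of shco4 against shco2 was -0.44 (adjusted p = 0.0481). CHEK2, the kinase downstream of ATM, read 219.5, 191 and 249 with shco4, 431, 338 and 369.8 with shco2 and 336, 357 and 317 with scramble. CHEK2 fell with shco4 by 0.62 ± 0.12 (SE, adjusted p = 0.0172). Its call ended without shco4 replicate 1 or scramble replicate 1 or 2 (highest adjusted p 0.061).

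Of the 3 subunits of the complex that first binds broken ends, RAD50 rose with shco2, MRE11 fell with shco4, and NBN was not called at its brightest probe set. RAD50 read 683, 519.6 and 595 with shco4, 916, 843 and 742 with shco2 and 492, 379 and 414 with scramble, so the shco2 arrays were highest and scramble lowest. It rose with shco2 by 0.96 ± 0.14 (SE, adjusted p = 0.0051) and differed by 0.48 ± 0.14 (SE, adjusted p = 0.0615) with shco4, which passed with the replicate block (adjusted p = 0.0202). With shco4 against shco2, RAD50 was lower by 0.48 ± 0.14 (SE, adjusted p = 0.0436). Without shco4 replicate 2 or 3, shco2 replicate 1 or 2 or scramble replicate 2 or 3 (highest adjusted p 0.129) the hairpins were not called apart. At its other, dimmer probe set RAD50 differed by 0.54 with shco2 (adjusted p = 0.419). MRE11, the nuclease, lay at 268 to 296 with shco4, 343 to 391.9 with shco2 and 344 to 478 with scramble and fell with shco4 by 0.56 ± 0.12 (SE, adjusted p = 0.0233). The fall ended without shco4 replicate 1 or 3 or scramble replicate 2 (highest adjusted p 0.0749). Against shco2 it was lower with shco4 by 0.42 ± 0.12 (SE, adjusted p = 0.0424), which ended without shco4 replicate 1, 2 or 3, shco2 replicate 1, 2 or 3 or scramble replicate 2 (highest adjusted p 0.124). Its other probe set was near the floor. NBN, the adaptor, lay at 652 to 811 with shco4, 677 to 853 with shco2 and 809 to 976 with scramble, with differences of -0.34 (adjusted p = 0.115) with shco4 and -0.23 (adjusted p = 0.295) with shco2. The first of these passed with the replicate block (adjusted p = 0.0104). At its next brightest probe set NBN rose with shco2 by 0.56 (adjusted p = 0.015), and its direction with shco2 is uncertain. Between the hairpins its brightest probe set differed by -0.12 (adjusted p = 0.579), while the other 3 were lower with shco4, with log2 differences of -0.81, -0.63 and -0.69 (adjusted p = 0.00214, 0.0275 and 0.0128).

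ATM, the kinase that answers breaks, read 769, 432 and 1095 with shco4, 588, 730.00 and 785 with shco2 and 632, 597 and 752 with scramble. The spread within shco4 covered both other groups, and its differences were 0.12 (adjusted p = 0.952) with shco4 and 0.08 (adjusted p = 1) with shco2. ATR, the kinase that answers stalled forks, lay at 505 to 642 with shco4, 352 to 443 with shco2 and 374 to 542 with scramble, with a difference of 0.34 (adjusted p = 0.244) with shco4 that passed with the replicate block (adjusted p = 0.0263). With shco4 against shco2 ATR differed by 0.47 (adjusted p = 0.0857), and at its other probe set, and at this one without scramble replicate 3, that difference passed (adjusted p = 0.0333 and 0.0438).

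In mismatch repair, 1 of 3 genes fell and 0 rose with shco4, 0 fell and 1 rose with shco2, and 2 were lower and 0 higher with shco4 than with shco2. Of probe sets with a mean log2 intensity over 6, 15.6% fell with shco4, 17.2% rose with shco2 and 25.7% were lower with shco4 than with shco2. With 3 genes a share says little. MSH6, which recognises base mismatches, read 867, 1061 and 879.6 with shco4, 2002, 1865 and 1887 with shco2 and 1431, 1601 and 1360.1 with scramble. The groups were apart, with shco4 lowest and shco2 highest. MSH6 fell with shco4 by 0.65 ± 0.10 (SE, adjusted p = 0.00565) and rose with shco2 by 0.39 ± 0.10 (SE, adjusted p = 0.0303). It was 2.06-fold lower with shco4 than with shco2 (adjusted p = 0.000457). The rise with shco2 ended without shco2 replicate 1, 2 or 3 or scramble replicate 1 or 3 (highest adjusted p 0.0944). At its other bright probe set MSH6 fell with shco4 by 0.70 (adjusted p = 0.0386) and differed by 0.26 with shco2 (adjusted p = 0.425).

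MSH3, which recognises loops, read 292, 217 and 263 with shco4, 465, 457 and 413 with shco2 and 312, 361 and 221 with scramble, with shco2 above both other groups and shco4 overlapping scramble. It was 1.74-fold lower with shco4 than with shco2 (adjusted p = 0.0217). That call ended without shco4 replicate 2 or 3 or shco2 replicate 1 or 2 (highest adjusted p 0.0679) and at its dimmer probe set (-0.38, adjusted p = 0.513). PMS1, a protein of the mismatch repair family, lay at 423 to 553 with shco4, 498 to 553 with shco2 and 411 to 499.6 with scramble, and its differences were 0.05 (adjusted p = 0.916) with shco4 and 0.17 (adjusted p = 0.416) with shco2.

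FANCE and EXO1 had the largest called differences between the hairpins. With shco4 against shco2 FANCE was lower by 1.61 ± 0.17 (SE, adjusted p = 0.000766), EXO1 by 1.56 ± 0.19 (SE, adjusted p = 0.00125) and RAD54B by 1.43 ± 0.14 (SE, adjusted p = 0.000513). PALB2 was lower by 1.29 ± 0.09 (SE, adjusted p = 0.000198) and BARD1 by 1.16 ± 0.15 (SE, adjusted p = 0.00146). No left-out array ended any of these 5 calls. CHEK2 and TOPBP1 were 1.73-fold and 2.01-fold lower (adjusted p = 0.0037 and 0.00436).

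**Figure D4:**
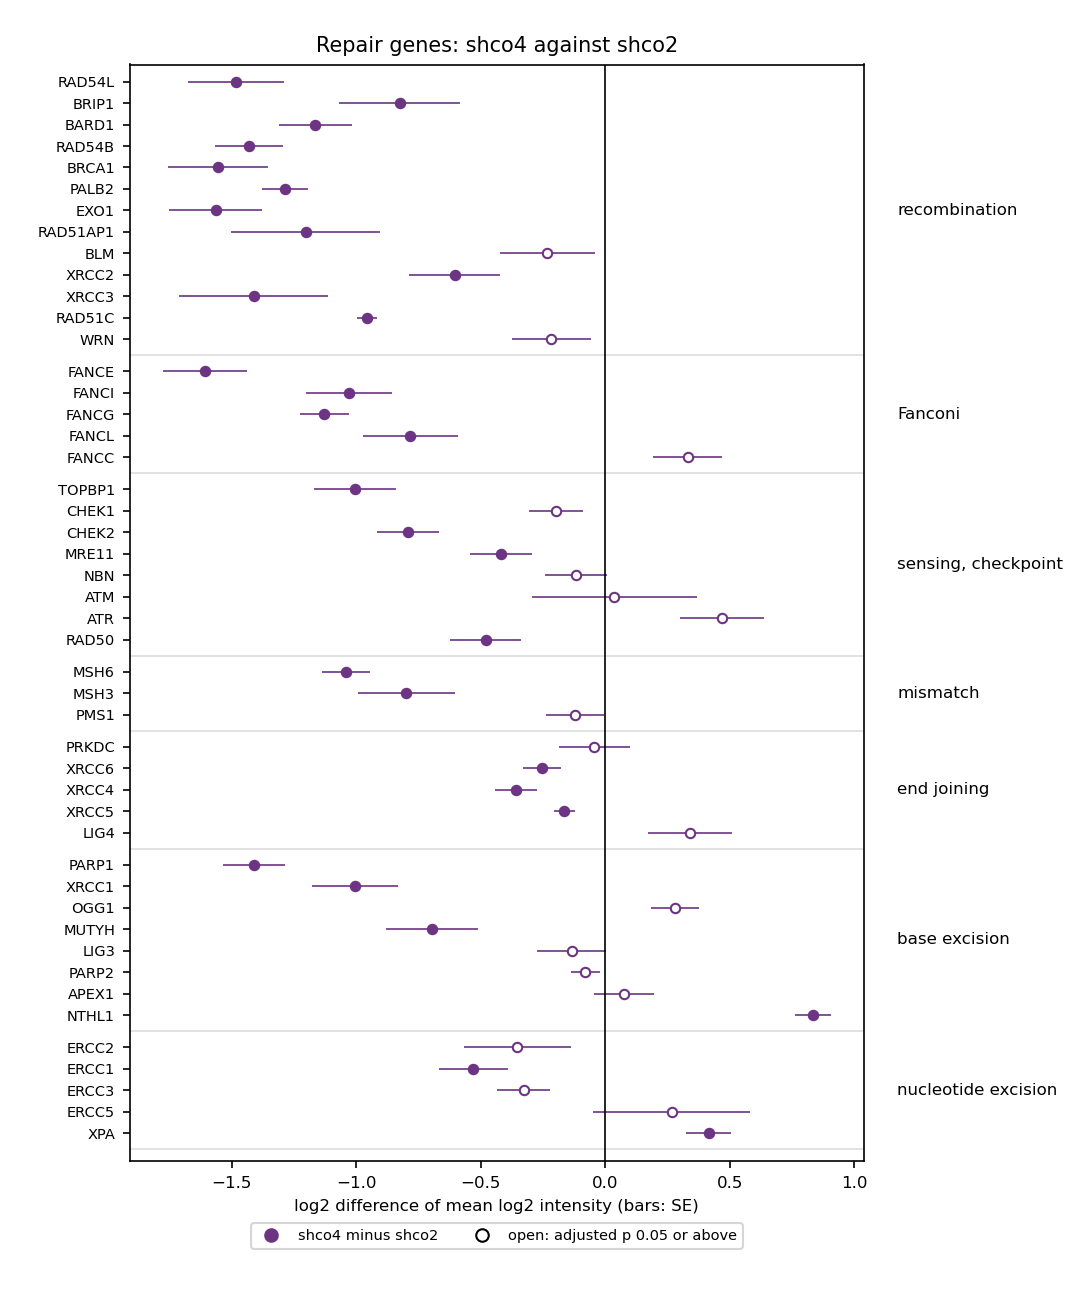
Log2 difference of shco4 minus shco2 for all 47 members by role, with bars for the SE (3 arrays a group) and filled points for an adjusted p under 0.05. Points of recombination genes lie between -1.56 and -0.22, and NTHL1 (0.83) and XPA (0.42) are the filled points right of 0.

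End joining ligates broken ends without a template. Of its 5 genes, 0 fell and 2 rose with shco4, 0 fell and 2 rose with shco2, and 3 were lower and 0 higher with shco4 than with shco2. The 2 that rose are 40% with either hairpin, where 14% (shco4) and 17.2% (shco2) of probe sets with a mean log2 intensity over 6 rose. Between the hairpins 60% were lower, against 25.7% of those probe sets. XRCC5, the large subunit of the Ku ring that binds ends, lay at 3838 to 4087 with shco4, 4384 to 4509 with shco2 and 3152 to 3507 with scramble, with both hairpins above scramble. It rose with shco4 by 0.26 ± 0.04 (SE, adjusted p = 0.00802) and with shco2 by 0.43 ± 0.04 (SE, adjusted p = 0.00135). At its other probe set XRCC5 differed by -0.08 with shco4 (adjusted p = 0.611) and by 0.09 with shco2 (adjusted p = 0.552). XRCC6, the other Ku subunit, lay at 4744 to 5266 with shco4, 5493 to 6455 with shco2 and 5049 to 5709.7 with scramble, with differences of -0.09 (adjusted p = 0.518) with shco4 and 0.17 (adjusted p = 0.202) with shco2. Against shco2, XRCC5 was lower with shco4 by 0.16 ± 0.04 (SE, adjusted p = 0.0264) and XRCC6 by 0.25 ± 0.08 (SE, adjusted p = 0.0458). The call for XRCC5 ended without shco4 replicate 1 or 3 or shco2 replicate 1, 2 or 3 (highest adjusted p 0.0832). That for XRCC6 ended without shco4 replicate 1, 2 or 3, shco2 replicate 1 or 3 or scramble replicate 2 or 3 (highest adjusted p 0.132). With each array centred on its median, neither passed (adjusted p = 0.131 and 0.0818).

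LIG4, the ligase of the pathway, lay at 201 to 288 with shco4, 193 to 208 with shco2 and 131 to 185 with scramble and rose with shco4 by 0.69 ± 0.17 (SE, adjusted p = 0.0344). The call ended without shco4 replicate 1 or 2, shco2 replicate 1, 2 or 3 or scramble replicate 1 or 2 (highest adjusted p 0.0994), and with the replicate block (adjusted p = 0.081). Between the hairpins LIG4 differed by 0.34 (adjusted p = 0.202). XRCC4, its scaffold, lay at 350.3 to 434 with shco4, 467 to 512 with shco2 and 380.05 to 416 with scramble, rose with shco2 by 0.33 ± 0.08 (SE, adjusted p = 0.0385) and was lower with shco4 than with shco2 by 0.36 ± 0.08 (SE, adjusted p = 0.019). The rise of XRCC4 ended without shco4 replicate 2, shco2 replicate 1, 2 or 3 or scramble replicate 1, 2 or 3 (highest adjusted p 0.115). The difference between hairpins ended without shco4 replicate 2 or shco2 replicate 2 or 3 (highest adjusted p 0.0647). At the probe set next in brightness XRCC4 differed by -0.34 with shco2 (adjusted p = 0.468). PRKDC, the catalytic kinase of end joining, read 849, 1055 and 1122 with shco4, 918, 1065 and 1126 with shco2 and 1107, 1229.6 and 1409 with scramble. Its groups overlapped, with replicate 1 the lowest in each, and its differences were -0.31 (adjusted p = 0.199) with shco4 and -0.27 (adjusted p = 0.272) with shco2. With the replicate block PRKDC was lower with shco4 (adjusted p = 0.00916), and at its other bright probe set it fell with shco4 by 0.31 (adjusted p = 0.0183) and with shco2 by 0.23 (adjusted p = 0.0481).

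Of the 8 genes of base excision and single-strand break repair, 2 fell and 1 rose with shco4, 1 fell and 0 rose with shco2, and 3 were lower and 1 higher with shco4 than with shco2. With shco4 25% fell and 12.5% rose, where 15.6% and 14% of probe sets with a mean log2 intensity over 6 did. With shco2 the shares were 12.5% and 0%, against 15.8% and 17.2%. Between the hairpins 37.5% were lower and 12.5% higher, against 25.7% and 22.6%. In so few genes these counts lie near those shares. PARP1, which marks single-strand breaks with poly(ADP-ribose), read 499.9, 687 and 588 with shco4, 1696, 1516 and 1477 with shco2 and 1306, 1149 and 1288 with scramble. The shco4 arrays lay under all others and shco2 above all others. PARP1 fell with shco4 by 1.09 ± 0.12 (SE, adjusted p = 0.00245) and differed with shco2 by 0.33 ± 0.12 (SE, adjusted p = 0.124). It was 2.66-fold lower with shco4 than with shco2 (adjusted p = 0.000389). XRCC1, the scaffold that PARP1 recruits, read 90.1, 90.2 and 113 with shco4, 214, 179 and 194 with shco2 and 166, 111 and 156 with scramble. It was 2.01-fold lower with shco4 than with shco2 (adjusted p = 0.00551), and its difference of -0.55 (adjusted p = 0.0782) with shco4 passed without scramble replicate 2 (adjusted p = 0.0232).

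NTHL1, a glycosylase for oxidised pyrimidines, read 522, 471 and 469 with shco4, 299, 258 and 265 with shco2 and 263, 239.9 and 256 with scramble. The shco4 arrays stood above all others, and shco2 and scramble overlapped. NTHL1 rose with shco4 by 0.95 ± 0.07 (SE, adjusted p = 0.000688) and differed with shco2 by 0.11 ± 0.07 (SE, adjusted p = 0.374). It was 1.78-fold higher with shco4 than with shco2 (adjusted p = 0.00037). OGG1, the glycosylase for oxidised guanine, read 159.7, 150.04 and 166 with shco4, 137, 135 and 119 with shco2 and 255, 229 and 202 with scramble, so both hairpins lay under scramble and shco2 lowest. OGG1 fell with shco4 by 0.52 ± 0.10 (SE, adjusted p = 0.0127) and with shco2 by 0.81 ± 0.10 (SE, adjusted p = 0.00242). At its next brightest probe set OGG1 fell by 1.02 with shco4 (adjusted p = 0.00522) and by 1.38 with shco2 (adjusted p = 0.00165). The hairpins differed in OGG1 by 0.28 (adjusted p = 0.0716), which passed without scramble replicate 1 or 3 (adjusted p = 0.0475 and 0.0396).

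MUTYH, which removes adenine opposite oxidised guanine, lay at 191 to 226 with shco4, 288 to 429 with shco2 and 252 to 348 with scramble. It was lower with shco4 than with shco2 by 0.70 ± 0.18 (SE, adjusted p = 0.0289). The difference of MUTYH lost its call without shco4 replicate 1, 2 or 3, shco2 replicate 1 or 3 or scramble replicate 2 (highest adjusted p 0.0883). LIG3, the ligase held by XRCC1, lay at 97.9 to 143 with shco4, 125 to 138 with shco2 and 146 to 168 with scramble. Its differences were -0.38 (adjusted p = 0.113) with shco4 and -0.25 (adjusted p = 0.299) with shco2. The first passed without shco4 replicate 2 (adjusted p = 0.0472). PARP2, the close relative of PARP1, lay at 781 to 887 with shco4, 816 to 910.2 with shco2 and 753 to 776 with scramble. Its differences were 0.11 (adjusted p = 0.293) with shco4 and 0.19 (adjusted p = 0.0735) with shco2. The second of these passed without shco2 replicate 2 or shco4 replicate 2 (adjusted p = 0.0419 and 0.0454) and at the next probe set (0.21, adjusted p = 0.0468). APEX1, the endonuclease that cuts at lost bases, lay at 2335 to 2910.3 with shco4, 2341 to 2801 with shco2 and 2015 to 2470.8 with scramble. Its differences were 0.28 (adjusted p = 0.18) with shco4 and 0.20 (adjusted p = 0.338) with shco2, and the first passed with the replicate block (adjusted p = 0.0143).

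**Figure D5:**
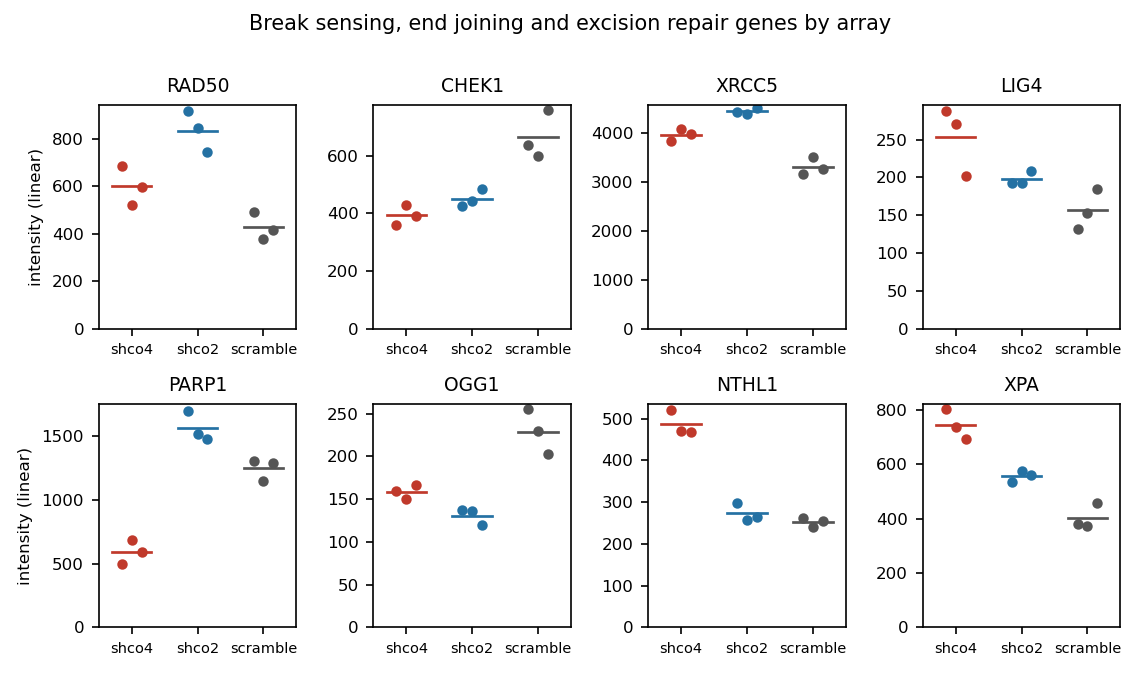
Linear intensity (arbitrary units, axes from 0) of 8 genes of break sensing, end joining and excision repair on each array, with the group mean as a bar. PARP1 is lowest on the 3 shco4 arrays, NTHL1 and XPA are highest there, and CHEK1 and OGG1 are lower on all 6 Coco hairpin arrays than on the scramble arrays. All 8 genes are called members, and the share of all probe sets with such orders was not computed.

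Nucleotide excision repair removes bulky lesions, and of its 5 genes 1 fell and 1 rose with shco4, 0 fell and 1 rose with shco2, and 1 was lower and 1 higher with shco4 than with shco2. With shco4 20% fell and 20% rose, where 15.6% and 14% of probe sets with a mean log2 intensity over 6 did. With shco2 the shares were 0% and 20%, against 15.8% and 17.2%. Between the hairpins 20% were lower and 20% higher, against 25.7% and 22.6%. In so few genes these counts lie near those shares. XPA, the scaffold that holds the incision complex on damage, read 802, 737 and 694 with shco4, 533, 577 and 561 with shco2 and 381, 372 and 456 with scramble. The groups were apart, with shco4 highest and scramble lowest. XPA rose with shco4 by 0.89 ± 0.09 (SE, adjusted p = 0.00175) and with shco2 by 0.47 ± 0.09 (SE, adjusted p = 0.013). It was 1.33-fold higher with shco4 than with shco2 (adjusted p = 0.0136). ERCC2, a helicase of TFIIH, read 179, 177 and 152 with shco4, 243, 179 and 229.99 with shco2 and 380.2, 312 and 223 with scramble. All 3 shco4 arrays lay under scramble, and ERCC2 fell with shco4 by 0.82 ± 0.21 (SE, adjusted p = 0.0418). The fall of ERCC2 ended without shco4 replicate 1, 2 or 3, shco2 replicate 1 or 3 or scramble replicate 1 or 2 (highest adjusted p 0.12). Between the hairpins ERCC2 differed by -0.35 (adjusted p = 0.297).

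ERCC1, a subunit of the nuclease that cuts on one side of the lesion, lay at 578 to 797 with shco4, 922 to 975 with shco2 and 638 to 814 with scramble and was lower with shco4 than with shco2 by 0.53 ± 0.14 (SE, adjusted p = 0.0271). The call for ERCC1 ended without shco4 replicate 2 or 3 or shco2 replicate 1, 2 or 3 (highest adjusted p 0.0812). At its other probe set ERCC1 was higher with shco4, by 0.27 (adjusted p = 0.038), so its direction is uncertain. Its difference with shco2 was 0.38 (adjusted p = 0.111) and passed without shco4 replicate 1 (adjusted p = 0.0448). ERCC3, the other TFIIH helicase, lay at 518 to 647 with shco4, 705 to 748 with shco2 and 558 to 701 with scramble. With shco4 against shco2 it differed by -0.33 (adjusted p = 0.0609), which passed with median centring (adjusted p = 0.0466) and without scramble replicate 2 or shco4 replicate 3 (adjusted p = 0.0449 and 0.0429). ERCC5, the nuclease on the other side, lay at 129.9 to 208 with shco4, 123 to 142 with shco2 and 67.5 to 152 with scramble, with a difference of 0.74 (adjusted p = 0.172) with shco4 that passed without scramble replicate 3 (1.06, adjusted p = 0.0336).

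Set side by side over the 47 members, 4 (BRCA1, PALB2, RAD54B and MSH6) fell with shco4 and rose with shco2. CHEK1 and OGG1 fell with both, and XRCC5 and XPA rose with both, although XRCC5 was called at 1 of its 2 probe sets. The 10 members BARD1, RAD54L, FANCE, FANCG, FANCI, MRE11, CHEK2, TOPBP1, PARP1 and ERCC2 fell with shco4 and were not called with shco2, LIG4 and NTHL1 rose with shco4 and were not called with shco2, and RAD51C, EXO1, RAD50 and XRCC4 rose with shco2 and were not called with shco4. Of these 16 members called with 1 hairpin, 14 also differed between the hairpins, and LIG4 and ERCC2 did not pass that test. The other 23 were called against scramble with neither hairpin. The shares of all probe sets with these joint patterns were not computed, so the counts are given as a description. Counting all 3 comparisons at the brightest probe set, 34 members were called in at least 1 and 13 in none, NBN among the 13.

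A further list of 73 repair and replication-repair genes, of which 54 had a probe set, held 11 that fell and 8 that rose with shco4, 2 that fell and 16 that rose with shco2, and 21 lower and 3 higher with shco4 than with shco2. As shares, 20.4% fell and 14.8% rose with shco4, where 15.6% and 14% of probe sets with a mean log2 intensity over 6 did. With shco2, 3.7% fell and 29.6% rose, against 15.8% and 17.2%, and between the hairpins 38.9% were lower and 5.56% higher, against 25.7% and 22.6%. Their median log2 differences were -0.06 with shco4, 0.25 with shco2 and -0.24 between the hairpins. PCNA, the sliding clamp of replication and repair synthesis, read 579, 1116 and 1011 with shco4, 4017, 4492 and 4668 with shco2 and 2937, 3524 and 3128 with scramble. PCNA fell with shco4 by 1.88 ± 0.24 (SE, adjusted p = 0.00378). POLD1, the catalytic subunit of the polymerase that PCNA holds, read 210.4, 243 and 204 with shco4, 919.6, 734 and 751 with shco2 and 878, 728 and 632 with scramble. POLD1 fell with shco4 by 1.76 ± 0.15 (SE, adjusted p = 0.000945). LIG1, which seals the nicks, fell with shco4 by 0.99 ± 0.09 (SE, adjusted p = 0.00134), and DNA2, a nuclease for resection and flaps, by 0.94 ± 0.09 (SE, adjusted p = 0.00128). In these 4 genes shco2 differed from scramble by 0.46 (adjusted p = 0.271), 0.11 (adjusted p = 0.747), 0.07 (adjusted p = 0.721) and 0.01 (adjusted p = 1).

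DDB2, which finds ultraviolet lesions for nucleotide excision, read 91.8, 127 and 115 with shco4, 474, 525 and 437 with shco2 and 318, 311 and 296 with scramble, with the groups apart. It fell with shco4 by 1.48 ± 0.13 (SE, adjusted p = 0.000973) and rose with shco2 by 0.63 ± 0.13 (SE, adjusted p = 0.0148). RAD51D, which works in complex with XRCC2, fell with shco4 by 0.81 ± 0.22 (SE, adjusted p = 0.0462) and rose with shco2 by 0.89 ± 0.22 (SE, adjusted p = 0.0303). RAD52, a mediator of strand annealing, read 162, 148 and 189.8 with shco4, 126, 129.95 and 136 with shco2 and 82.3, 64.4 and 63.97 with scramble, with scramble lowest. RAD52 rose with shco4 by 1.25 ± 0.13 (SE, adjusted p = 0.00174) and with shco2 by 0.90 ± 0.13 (SE, adjusted p = 0.00424). POLQ, the polymerase of microhomology-mediated joining, fell with shco4 by 0.84 ± 0.14 (SE, adjusted p = 0.01). RPA2, a subunit of the single-strand binding protein, and FEN1, the flap nuclease, were 2.58-fold and 2.08-fold lower with shco4 than with shco2 (adjusted p = 0.00295 and 0.00169), and FEN1 rose with shco2 by 0.68 ± 0.14 (SE, adjusted p = 0.0156).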

How the data were processed

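Total RNA from the 9 samples, 200 ng each, had been labelled as biotin-cRNA with a 3′ IVT kit and hybridised to 1 Affymetrix array per sample, per the labels' protocols. The authors deposited linear intensity values for 22277 probe sets, scaled to a common trimmed mean, as tested on the values, and the summary software is not given in the sources used here. All columns were mapped to samples by their labels. A floor of 16 was set before taking log2, and 62 control probe sets were left out. The platform annotation gave 1 symbol to 19064 probe sets, several to 1043 and none to 2108, and 2611 probe sets lay at the floor on all arrays. A single fit of group means over the 9 arrays (lmFit and eBayes, limma 3.58.1, R 4.3.3) gave the contrasts of shco4 or shco2 against scramble and of shco4 against shco2. All tests were two-sided, with Benjamini-Hochberg adjustment over 22215 probe sets in each contrast and a threshold of 0.05. The fit was also run on simulated data with noise drawn independently for each array. Those data lack the shared deviations of same-numbered arrays, so that run does not show how the fit behaves with them. For arrays, 3 per group limit the precision.

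The members and the gene lists were chosen with earlier results of these data known. The lists cover repair roles, other repair genes, proliferation genes, cell line markers, fibroblast markers and luminal breast markers. All members are accounted for. Array values are printed for the 24 called members with the largest differences, for a set of genes taken whatever their values (BRCA1, ATM, PRKDC, PARP1, MSH6 and CHEK1 of those measured) and for others as ranges. From the other repair genes up to 10, and from the proliferation genes up to 3, were taken by size. Promoter letters came from RefSeq (GRCh38.p14).

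Same-numbered arrays deviated from their group means together in every comparison (r of 0.133 to 0.235 for shco4 and scramble). The labels give only a replicate number and do not say what arrays with the same number share. The main fit has no block. Values with the replicate number as a block are given gene by gene where they change a call for shco4 against scramble. Changes in the other comparisons are given with the dependence on processing. The other alternatives were quantile normalisation, median centring, a floor of 64, a filter at a mean log2 intensity of 6, eBayes with trend and robust settings, only the arrays of the groups compared, the next probe set of a gene, and each array left out in turn. For class medians, the median over all probe sets of a gene stood in place of its next probe set.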

Additional observations from a re-analysis of the deposited data

Results flagged for a closer look

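In 4 members the 2 hairpins moved to opposite sides of scramble, with both differences past the threshold. The 4 were picked by these opposite calls together with a limma call for shco4 against shco2. Values of that contrast therefore follow from the choice and are no separate support. The log2 difference of shco4 minus shco2 was -1.55 for BRCA1, -1.29 for PALB2, -1.43 for RAD54B and -1.04 for MSH6, with Benjamini-Hochberg adjusted p-values of 0.00167, 0.000198, 0.000513 and 0.000457. In each gene all 3 shco4 arrays lay under all 3 scramble arrays and all 3 shco2 arrays above them. This order also goes with the choice, and the share of all probe sets that show it was not computed. For BRCA1 both differences from scramble missed the threshold after quantile normalisation (adjusted p = 0.0603 with shco4 and 0.052 with shco2). No left-out array ended these 4 differences between hairpins. The calls against scramble held less well. The rise with shco2 was lost without any 1 of 6 arrays for BRCA1 and of 5 arrays each for RAD54B and MSH6. The fall of BRCA1 with shco4 was lost without any 1 of the 9. At another probe set the rise was not called for BRCA1 (adjusted p = 0.342) or MSH6 (adjusted p = 0.425). No left-out array ended both PALB2 calls or the falls of RAD54B and MSH6. Groups of 3 arrays were not tested for outlying arrays.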

How the results depend on the processing

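With 1 array left out at a time, the members that rose numbered 3 to 5 with shco4 (4 with all arrays) and those that fell 12 to 15 (16). With shco2, 5 to 12 rose (10) and 1 to 2 fell (2), and with shco4 against shco2, 2 to 4 were higher (2) and 18 to 26 lower (28). The S-phase-linked median ranged from -0.74 to -0.42 with shco4, from 0.34 to 0.47 with shco2 and from -1.15 to -0.95 between the hairpins, and the end joining and excision median from -0.12 to -0.038, from 0.20 to 0.27 and from -0.21 to -0.15. Quantile normalisation ended 7 calls of single genes, both BRCA1 calls against scramble among them (0.767 with shco2, adjusted p = 0.052, and -0.74 with shco4, adjusted p = 0.0603), and added 2, and median centring ended 2 and added 3. With quantile normalisation the end joining and excision median was 0.24 with shco2 and -0.20 between the hairpins, and with median centring it was 0.23 with shco2. With the median over all probe sets of each gene, the class medians with shco2 were 0.32 (S-phase-linked) and 0.20 (end joining and excision). Class medians at the next probe set alone were not computed. At the next probe set of each gene 6 members rose with shco2 and 4 were higher with shco4 than with shco2. Of 11 differences of single genes that changed sign there, 5 were called at neither probe set. The 6 called at either were NBN with shco2 (0.56), XRCC4 with shco2 (-0.34), MRE11 with shco4 (0.11) and against shco2 (0.19), XRCC5 with shco4 (-0.075) and ERCC1 between the hairpins (0.27), and the cause was not tested. The replicate block ended 6 calls and added 14. With it 19 members fell and 6 rose with shco4, 4 fell and 12 rose with shco2, and 26 were lower and 3 higher with shco4 than with shco2. Same-numbered arrays also deviated together for shco2 against scramble (correlations 0.0571 to 0.29) and shco4 against shco2 (0.0576 to 0.213). The best match carried the same number in 18 of 18 cases. With shco2 the block added rises of RAD51AP1, WRN and APEX1 (adjusted p = 0.0153, 0.0411 and 0.0288). It added falls of NBN and PRKDC (0.0264 and 0.0115) and ended the rise of XRCC4 (0.0592). Between the hairpins it added WRN, ATR and ERCC3 (0.0373, 0.00649 and 0.0317). BRIP1, XRCC2, XRCC6 and MUTYH were no longer called between them (0.053, 0.101, 0.0767 and 0.0552). The floor of 64, the filter on dim probe sets, eBayes with trend and robust settings and the fit to the compared arrays alone kept counts within 1.5 times of those reported. That limit is wide. The compared arrays alone ended the calls of BRCA1, RAD54L, MRE11, LIG4 and ERCC2 with shco4. Between the hairpins they ended those of BRIP1, RAD51AP1, XRCC2, FANCL, RAD50, XRCC4, XRCC6 and MUTYH. In the order named, the 4 settings ended 6, 2, 1 and 13 calls of single genes, and the compared arrays added 1 (RAD54L with shco2, adjusted p = 0.00602). The filter, which adjusts over fewer probe sets, added 10 (RAD54L, XRCC3 and MSH3 with shco2, BRIP1, EXO1, RAD50, XRCC1 and MUTYH with shco4, and ATR and ERCC3 between the hairpins). Dim signal limits the second probe set of MRE11 (5.6 to 23.6) and the dimmest of OGG1 (12.6 to 32.2), both near the floor.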

Other observations

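Several members were read by more than 1 probe set, and the second readings add values that the report does not use. At the second probe set of FANCI the intensities were 160.2, 178 and 158 with shco4, 378, 351.1 and 347 with shco2 and 379.95, 391.6 and 366 with scramble. FANCI fell there with shco4 by 1.20 on the log2 scale (limma, adjusted p = 0.000248) and was lower than with shco2 by 1.12 (adjusted p = 6.94e-05). CHEK1 fell with shco4 by 0.68 at its second probe set (adjusted p = 0.016). PARP2 differed by 0.32 with shco2 at a further probe set (adjusted p = 0.0262) and by 0.10 with shco4 (adjusted p = 0.479).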
